A study of Rattus norvegicus with 24 samples.

Results

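The array measured 43 genes of the translation machinery in rat kidney, 32 ribosomal proteins and 11 translation factors or their regulators. They were every measured probe whose single gene symbol began with Rpl or Rps and a digit, was Rplp0 or Rpsa, or began with Eif or Eef and a digit, with the Rps6ka and Rps6kb kinases left out. That is 43 of 1422 genes with 1 symbol, and each rested on 1 probe. By symbol 21 were proteins of the large subunit, 11 of the small subunit, 7 belonged to initiation and 4 to elongation. The label held for most members. Eif2ak1, Eef2k and Eif4ebp1 carry a factor's name, but 2 are kinases that act on factors and Eif4ebp1 is an inhibitor. Rpl17-ps16 and Rpl18-ps7 are pseudogenes in the gene table, and Rpl27l1, Rpl36al1 and Rpl37l1 have symbols of the form used for copies of other ribosomal protein genes. A cDNA probe can bind RNA of near-identical copies, so which copy these probes read is uncertain. A further probe that carried a pseudogene symbol beside its ribosomal protein symbol was left out.

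The study asked how the kidney responds to salt in a rat that develops hypertension on it. Its arrays set an LS rat against an HS rat of the same strain, read here as low and high salt. SS is the Dahl salt-sensitive rat, and in SS-13BN/Mcw, a consomic strain, its chromosome 13 has been replaced by that of the Brown Norway rat. The 4 groups were SS overnight, SS at 3 days, SS-13BN/Mcw overnight and SS-13BN/Mcw at 3 days, each with 3 rat pairs. Every pair was hybridised on 2 arrays with Cy5 and Cy3 exchanged, so there were 24 arrays of total RNA. The sources used here do not give the salt content of the diets or the rats' age and sex. Both strains share the SS background outside chromosome 13. In titles of either strain the rats numbered 1 to 3 recur overnight and at 3 days, which makes it likely that these groups share rats.

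Ribosomes are built from ribosomal RNA and a set of ribosomal proteins, most of which sit at fixed places on the large or the small subunit and are needed in equal numbers. Their mRNAs, and those of some translation factors, are known to begin with a run of pyrimidines, the 5′ terminal oligopyrimidine tract, through which signalling by the kinase mTOR sets how much of them is translated. Initiation factors bring the first tRNA and the small subunit to an mRNA, and elongation factors deliver tRNAs and move the ribosome along. In the kidney, as in other tissues, ribosomal protein mRNAs are among the abundant transcripts.

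The start sites below are of the 5 genes that passed the test over all groups and of Rpsa, which lay farthest from the rest. Each shows the 18 bases before the annotated start and the first 12 of the transcript, from RefSeq on GRCr8, on the strand of the gene. Capitals mark the longest run of at least 6 bases that are each C or T and that touches the 10 bases on either side of the start. Only 1 run is marked in each gene, and another stretch shown can meet the same rule.
Rpl31 (chr9:49143093-49143122, plus strand): atcccacaatccctcgcgCCTTTCCTTTCC
Rpl39 (chrX:121195885-121195914, minus strand): gcgtcttctaatcgcgTTCTTCCggcctgt
Rpl41 (chr7:1563486-1563515, minus strand): aggggcggctcggaagtgacgacaccaagc
Rps13 (chr1:180009649-180009678, minus strand): tgtgccgtttcctacctcgTTCTCTCTTTg
Rpl29 (chr8:115947625-115947654, plus strand): agcgggCCTTTCTCTTTCTCTTCCggtccc
Rpsa (chr8:128728861-128728890, plus strand): cgTCCTTTCCgcgctaccctggaacgggtc

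A start-site sequence was found for 34 of the 43 members. A run of C or T as described above touched the 10 bases on either side of the start in 22 of 25 ribosomal protein genes (88%), against 348 of 1152 measured genes (30.2%) and 7776 of 27457 promoters in the table (28.3%). Rpl36, Rpl41 and Rpl6 held none in this window. Of the factors 2 of 9 held it (22.2%), Eef1a1 with a run of 9 bases and Eif4g1 with 6. A run of C or T on the opposite strand reads as a run of A or G here. Its share was 2 of 25 (8%) for ribosomal proteins, 28.1% for measured genes and 32.3% for all promoters. The share among ribosomal proteins was thus above that of the measured genes on the strand of the gene, and that among factors was below it. The longest runs were in Rps23, with 21 bases, and Rpl27a, with 20. These counts describe the annotated starts and were not tested.

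Values are log ratios on the deposited scale, with the median of each array set to 0. Neither the log base nor which rat is the numerator is stated, so no fold is given and no direction with salt. A gene is said to lie on the positive or negative side, and the ratio was taken to run alike in all groups and to have been turned to 1 rat-to-rat direction before deposit. What depends on that is given with the dye values. A pair's value is the mean of its 2 arrays, and the p-values rest on the spread of rat pairs within a group. An array held 877 to 1412 probes, and how many arrays there were sets the precision. The ratios carry no level, so the tissue label could be checked only as far as 16 of 22 proximal tubule markers had a value. Slide numbers of each SS group were apart from all others, so for every strain comparison and for time in SS the group and the slide order cannot be told apart.

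The translation genes were well measured on this array. Of the members 32 had a value on all 24 arrays (74.4%), against 39.7% of the 1766 measured probes. These 32 were 29 ribosomal proteins, the initiation factor Eif5, and the elongation factors Eef1a1 and Eef2. The gaps lay mostly among the translation factors and their regulators. Eif2ak1, the heme-regulated kinase of initiation factor 2, and Eef1a2, an isoform of Eef1a1 typical of muscle and nerve, had values on 5 arrays each, and Rps29 on 6. None of these 3 could be tested in any group. Rps15a and Rps24, both of the small subunit, had values on 21 arrays. In SS overnight Rps15a stood at 0.10, 0.53 and -0.047 and in SS-13BN/Mcw overnight at 0.20, -0.015 and 0.067, while its single pair of SS at 3 days was at -0.010 and its 2 pairs of SS-13BN/Mcw at 3 days were at 0.31 and -0.24. Rps24 had 0.14, -0.017 and -0.53 in SS-13BN/Mcw overnight and -0.40 in its single pair of that strain at 3 days. Rps29 had 1 pair in 3 of the groups, at -0.26 in SS overnight, -0.093 in SS-13BN/Mcw overnight and 0.061 in that strain at 3 days.

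Overnight in SS rats, the means of ribosomal proteins lay slightly on the positive side, but their pairs did not all do so. All 21 large-subunit proteins tested and 9 of 10 small-subunit proteins had a mean above 0, against 51.5% of all 1138 rows tested. Their median was 0.13, against 0.0068 for all rows. Only 3 of 40 members were positive in every measured pair, where 249 of the 1138 rows were. In pair 3 the median of the ribosomal proteins on all arrays was -0.061, with 5 of 29 positive. No single member passed an adjusted p of 0.05 (limma), where 1.14% of all rows did. An unadjusted p under 0.05 was reached by 3 of 40 members, all positive, where 8.52% of all rows reached it on that side. Fewer cells of a type and less RNA per cell cannot be told apart in these whole-tissue samples.

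Rpl39, a small protein at the exit tunnel of the large subunit, stood highest in this group. Its pairs 1 to 3 were 0.34, 0.41 and -0.019, with a mean of 0.24 ± 0.23 (SD, n = 3) and an adjusted p of 0.209 by limma. Rps6, the small-subunit protein that S6 kinases phosphorylate, had 0.24, 0.40 and -0.075 (mean 0.19 ± 0.24 (SD, n = 3), limma adjusted p = 0.297). Rpl27a of the large subunit had 0.36, 0.36 and -0.11 (mean 0.20 ± 0.27 (SD, n = 3), limma adjusted p = 0.311). In each of the 3 genes pairs 1 and 2 were well above 0 and pair 3 was below it. On the negative side were Eef2k, the kinase that inhibits Eef2, with -0.22, -0.15 and -0.027 (limma adjusted p = 0.485), and Rps24 with -0.25, -0.065 and -0.13 (limma adjusted p = 0.593). Both were below 0 in all 3 pairs. Eif2b2, the beta subunit of the exchange factor that recharges initiation factor 2, was split, with -0.16, -0.23 and 0.23 (limma adjusted p = 0.843).

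Overnight in SS-13BN/Mcw rats ribosomal proteins also lay mostly on the positive side. Of 31 ribosomal proteins tested 26 lay above 0 (all rows 49.6%), with a median of 0.13 against -0.0014 for all rows. Among 39 members 22 were positive in every measured pair, against 30.3% of all rows. None passed the adjusted threshold (limma), although 10.6% of all 1099 rows did. An unadjusted p under 0.05 was reached by 9 members, all positive, and by 14.6% of all rows on that side.

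Rpl39 again stood highest, with 0.32, 0.31 and 0.18 in pairs 1 to 3 (mean 0.27 ± 0.074 (SD, n = 3), limma adjusted p = 0.0852). Rpl31, a neighbour of the exit tunnel on the large subunit, was nearly equal in the pairs at 0.28, 0.28 and 0.21 (mean 0.26 ± 0.039 (SD, n = 3), limma adjusted p = 0.123). Rps23, a small-subunit protein at the decoding site, had 0.20, 0.19 and 0.20 (mean 0.20 ± 0.0083 (SD, n = 3), limma adjusted p = 0.151). These 3 were above 0 in every pair. Eif5, which makes initiation factor 2 spend its GTP once the start codon is found, was the one factor among the highest, with 0.46, 0.060 and 0.24 (mean 0.25 ± 0.20 (SD, n = 3), limma adjusted p = 0.0872). With the 24 arrays fitted singly, a dye term included and the pair as a random block, Rpl39 and Eif5 passed in this group (limma adjusted p = 0.0361 and 0.0372). Of all 1099 rows 204 passed in that fit. Over the alternatives that keep the arrays' direction, the adjusted p of limma reached 0.201 for Rpl39 and 0.337 for Eif5. Negative values were fewer. Rpsa, a small-subunit protein also known as a laminin receptor precursor, had -0.17, -0.46 and -0.022 (limma adjusted p = 0.318), Rpl18-ps7 had -0.032, -0.28 and -0.076 (limma adjusted p = 0.365), and Eif2b1, the alpha subunit of the exchange factor, had -0.14, -0.10 and -0.060 (limma adjusted p = 0.449). All 3 were below 0 in every pair, and Rpsa pair 2 was the farthest down.

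At 3 days the medians of the ribosomal proteins lay near 0 in either strain. In SS rats 19 of 30 were above 0 (all rows 48.9%) with a median of 0.044, and in SS-13BN/Mcw rats 18 of 30 (all rows 49.2%) with a median of 0.020. No member passed in SS, where 0.34% of all rows did, or in SS-13BN/Mcw, where 2.98% did (limma). Unadjusted p-values under 0.05 numbered 0 in SS, where 6.8% of all rows had one on the positive and 5.44% on the negative side. In SS-13BN/Mcw they numbered 1, on the positive side, where 6.51% of all rows had one.

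In SS at 3 days the smallest p-values on the positive side were those of Rpl15 (0.12, 0.27 and -0.027; limma adjusted p = 0.591), Rpl39 (0.30, 0.10 and -0.045; limma adjusted p = 0.647) and Eif5 (0.17, 0.028 and 0.13; limma adjusted p = 0.647). Of these only Eif5 was above 0 in all 3 pairs. On the negative side, Rps24 had 2 measured pairs at -0.42 and -0.014 (limma adjusted p = 0.64), and Rps3a had -0.15, -0.014 and -0.14 (limma adjusted p = 0.647). Rpl17-ps16 was split, with 0.11, -0.033 and -0.25 (limma adjusted p = 0.834).

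In SS-13BN/Mcw at 3 days Rpl41, the smallest ribosomal protein and rich in arginine and lysine, had 0.30, 0.058 and 0.35 (mean 0.24 ± 0.16 (SD, n = 3), limma adjusted p = 0.209). Rpl31 had 0.21, 0.018 and 0.34 (mean 0.19 ± 0.16 (SD, n = 3), limma adjusted p = 0.383). For both, pair 2 was close to 0 and pairs 1 and 3 were higher. Eif2b2 had 2 measured pairs, at 0.16 and 0.42 (limma adjusted p = 0.297). Rpl4, whose loop lines the exit tunnel, had 0.014, -0.15 and -0.19 (limma adjusted p = 0.437), Rps7 had -0.11, -0.12 and -0.034 (limma adjusted p = 0.568), and Rpl15 had 0.052, -0.057 and -0.29 (limma adjusted p = 0.575). Of these 3 only Rps7 was negative in every pair.

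**Figure D1:**
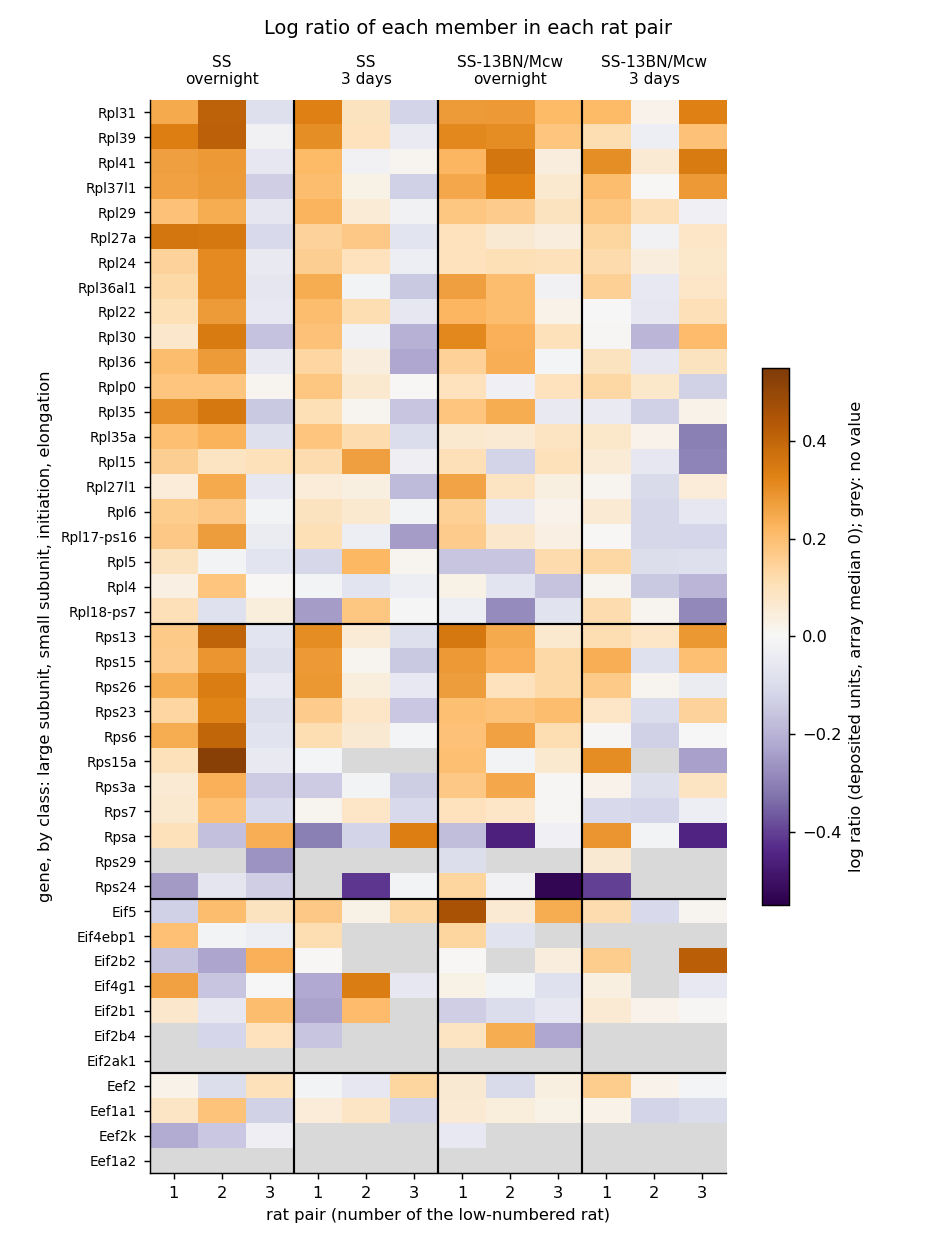
Each row is a member, grouped by class, and each column a rat pair of 1 of the 4 groups; colour gives the log ratio in deposited units, orange positive and purple negative, and grey marks no value. Most ribosomal proteins of the large and small subunit share the colour of their column. Their rows in pairs 1 and 2 of SS overnight are orange nearly throughout, and in pair 3 pale purple. Rpsa, Rpl18-ps7 and several factors depart from this in some columns, while the factor Eef1a1 keeps to it in both SS groups.

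Taking the mean over both strains and both times, 29 of 34 members tested lay above 0 (all rows 52.5%), with a median of 0.073 against 0.0078 for all 821 rows. Past the adjusted threshold were 5 members, 4 of the large subunit and Rps13 of the small subunit, all on the positive side (limma). Of all rows 28.4% passed, and 13.3% passed on the positive side, a share near that of the members. The values of the members were small beside the genes that led this contrast, whose values ran from -1.24 to 0.69. The range of the members was -0.062 to 0.18.

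Rpl31 had 0.25, 0.41 and -0.084 in SS overnight, 0.33, 0.091 and -0.12 in SS at 3 days, 0.28, 0.28 and 0.21 in SS-13BN/Mcw overnight and 0.21, 0.018 and 0.34 in that strain at 3 days. It had the highest mean of the members, at 0.18 ± 0.051 (SE) with a limma adjusted p of 0.0191, and 10 of 12 pairs were above 0. Rpl39 had 0.34, 0.41 and -0.019 in SS overnight, 0.30, 0.10 and -0.045 in SS at 3 days, 0.32, 0.31 and 0.18 in SS-13BN/Mcw overnight and 0.11, -0.032 and 0.19 in that strain at 3 days. The negative pairs of both genes were pair 3 of either SS group and, for Rpl39, pair 2 of SS-13BN/Mcw at 3 days. The mean of Rpl39 was 0.18 ± 0.046 (SE) with a limma adjusted p of 0.0123, and 9 of 12 pairs were above 0. Rpl41 had 0.27, 0.28 and -0.056 in SS overnight, 0.21, -0.021 and 0.013 in SS at 3 days, 0.22, 0.36 and 0.041 in SS-13BN/Mcw overnight and 0.30, 0.058 and 0.35 in that strain at 3 days. Its mean was 0.17 ± 0.045 (SE) with a limma adjusted p of 0.0157, and 10 of 12 pairs were above 0. The SS-13BN/Mcw pairs of Rpl41 were all positive, and the SS pairs were split.

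Rps13, a small-subunit protein that forms part of the bridge to the large subunit, had 0.17, 0.41 and -0.070 in SS overnight, 0.31, 0.055 and -0.083 in SS at 3 days, 0.35, 0.25 and 0.065 in SS-13BN/Mcw overnight and 0.11, 0.080 and 0.29 in that strain at 3 days. Its mean was 0.16 ± 0.049 (SE) with a limma adjusted p of 0.0296, and 10 of 12 pairs were above 0. Only pair 3 of both SS groups was negative. Rpl29, a lysine-rich protein of the large subunit, had 0.19, 0.24 and -0.061 in SS overnight, 0.23, 0.053 and -0.021 in SS at 3 days, 0.18, 0.17 and 0.092 in SS-13BN/Mcw overnight and 0.18, 0.11 and -0.024 in that strain at 3 days. Its mean was 0.11 ± 0.038 (SE) with a limma adjusted p of 0.0449, and 9 of 12 pairs were above 0. It had the smallest mean of the 5 and also a small spread.

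With the low-numbered rat as a replicate block 3 members passed, and Rps13 (limma adjusted p = 0.0663) and Rpl29 (limma adjusted p = 0.0794) did not. Of all rows 174 passed with that block and 233 without it. Over the alternatives that keep the arrays' direction, the adjusted p of limma ran from 0.00289 to 0.0707 for Rps13 and from 0.0184 to 0.109 for Rpl29. The count of 5 became 3 without pair 1 or pair 2 of SS overnight, pair 1 of SS at 3 days or pair 1 of SS-13BN/Mcw overnight. Of all rows 169, 183, 167 and 207 then passed, in that order. The count of members became 13 without pair 3 of SS overnight and 10 without pair 3 of SS at 3 days. There 268 and 262 of all rows passed, so the count over all rows moved the same way. Rpl31, Rpl39 and Rpl41 passed in each of the 12 fits that leave out 1 pair.

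**Figure D2:**
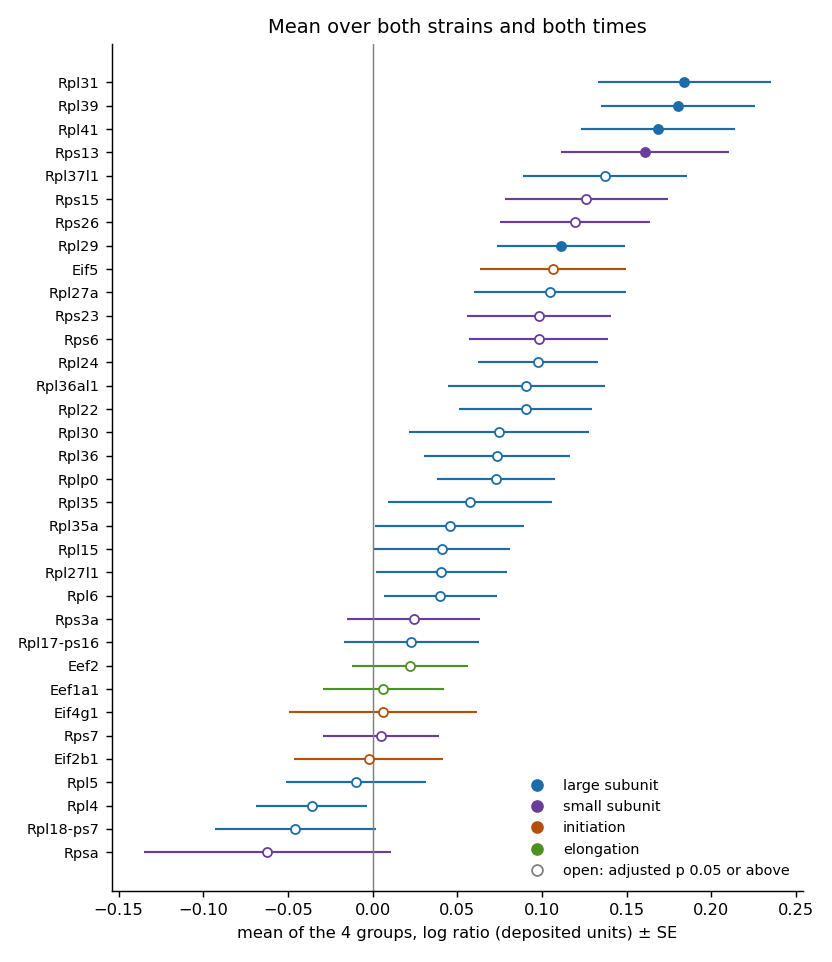
The horizontal axis is the mean log ratio over the 4 groups in deposited units, with its standard error as the bar, for the 34 members tested; filled points passed an adjusted p of 0.05 (limma). The 5 filled points lie between 0.11 and 0.18, and Rpsa, Rpl18-ps7, Rpl4, Rpl5 and Eif2b1 lie left of 0.

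Short of the threshold came Rpl37l1 at 0.14 ± 0.048 (SE) (limma adjusted p = 0.0521), Rpl24 at 0.10 ± 0.036 (SE) (limma adjusted p = 0.0578) and Rps26 at 0.12 ± 0.044 (SE) (limma adjusted p = 0.0611). An unadjusted p under 0.05 was reached by 14 members, all positive, 13 of them ribosomal proteins and 1 the factor Eif5 (0.11 ± 0.043 (SE), limma adjusted p = 0.0819). On that side 21.9% of all rows reached it. The lowest members were Rpsa at -0.062 ± 0.073 (SE), Rpl18-ps7 at -0.046 ± 0.048 (SE), Rpl4 at -0.036 ± 0.033 (SE) and Rpl5, which carries one of the ribosomal RNAs into the subunit, at -0.0099 ± 0.041 (SE), and none of them passed (limma adjusted p from 0.425 to 0.863). Next of the members with a value in all 12 pairs was Rps7 at 0.0050 ± 0.034 (SE), and the signs of Rpl5 and Rps7 turned with the scaling of the arrays. The other 16 ribosomal proteins tested had means from 0.023 for Rpl17-ps16 to 0.13 for Rps15, all positive, with adjusted p-values from 0.0684 to 0.677 (limma).

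Ribosomal proteins shared a position within a rat pair, and that position varied between pairs of the same group. For the 29 ribosomal proteins on all arrays, the median was 0.17, 0.28 and -0.061 in pairs 1 to 3 of SS overnight, and 29, 26 and 5 of the 29 were positive. In SS at 3 days it was 0.16, 0.055 and -0.072, with 24, 22 and 4 positive. Pair 3 was thus the one on the negative side at both times, and both of these pairs hold the SS rat numbered 3. In SS-13BN/Mcw overnight the median was 0.18, 0.17 and 0.065, with 26, 22 and 23 positive. In SS-13BN/Mcw at 3 days it was 0.11, -0.057 and 0.051, with 26, 10 and 16 positive. The median was above 0 in 9 of 12 pairs.

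**Figure D3:**
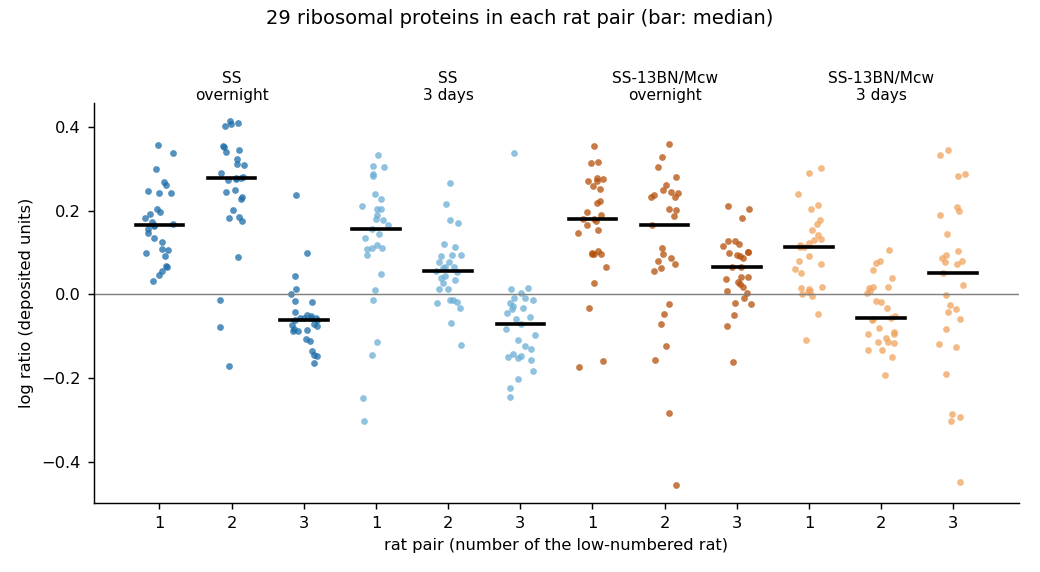
Each point is 1 of the 29 ribosomal proteins with a value on all arrays, the vertical axis is its log ratio in deposited units, and the bar is the median of the pair. The points of a pair lie close together, and the bars range from -0.072 in pair 3 of SS at 3 days to 0.28 in pair 2 of SS overnight.

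Within a pair the ribosomal proteins were closer to one another than genes in general. The interquartile range of the 29 ran from 0.045 to 0.23 over the 12 pairs, against 0.191 to 0.379 for the 700 rows with a value in all pairs, and it was the smaller in 12 of 12 pairs. Rpl24 lay nearest to the median of the pair, at a mean distance of 0.037, followed by Rpl22 (0.0397) and Rpl36 (0.0407). Rpsa lay farthest, at 0.304. Its pairs were 0.10, -0.17 and 0.24 in SS overnight, -0.30, -0.12 and 0.34 in SS at 3 days, -0.17, -0.46 and -0.022 in SS-13BN/Mcw overnight and 0.29, -0.015 and -0.45 in that strain at 3 days. Rpsa was high in pair 3 of both SS groups, where the other ribosomal proteins were low, and low in pair 2 of SS-13BN/Mcw overnight, where they were high. Rpl18-ps7 (0.194), Rpl5 (0.151) and Rpl4 (0.14) also lay apart. How the pairs share arrays, rats and median centring means that these distances describe this data set, and they were not tested.

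The few factors with values lay nearer to 0 in their medians than the ribosomal proteins overnight. Their median was 0.036 in SS overnight (9 tested), 0.021 in SS at 3 days (5 tested), 0.028 in SS-13BN/Mcw overnight (8 tested) and 0.018 in that strain at 3 days (6 tested). Eef1a1, which delivers tRNAs to the ribosome, had a mean over the groups of 0.0064 ± 0.036 (SE) (limma adjusted p = 0.894). Eef2, which moves the ribosome by a codon, had 0.022 ± 0.034 (SE) (limma adjusted p = 0.638). Eif4g1, the scaffold of the cap-binding complex, had 0.0062 ± 0.056 (SE) (limma adjusted p = 0.936), and Eif2b1 had -0.0024 ± 0.044 (SE) (limma adjusted p = 0.976). The errors of these 4 span 0. Single pairs of Eef1a1 were at 0.082, 0.19 and -0.13 in SS overnight and 0.049, 0.084 and -0.12 in SS at 3 days. Each lay on the side of the ribosomal protein median of its pair. Eif2b4, the delta subunit of the exchange factor, had -0.12 and 0.10 in its 2 measured pairs of SS overnight and 0.086, 0.24 and -0.23 in SS-13BN/Mcw overnight. Eif4ebp1, the repressor of the cap-binding protein, had 0.20, -0.014 and -0.034 in SS overnight and 0.14 and -0.075 in its 2 measured pairs of SS-13BN/Mcw overnight. Neither took 1 side.

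Between the times, ribosomal protein medians were lower at 3 days than overnight, most in pair 2 of either strain, and no member's difference passed. Medians of the 29 on all arrays went from 0.17 to 0.16, 0.28 to 0.055 and -0.061 to -0.072 in pairs 1 to 3 of SS. In SS-13BN/Mcw they went from 0.18 to 0.11, 0.17 to -0.057 and 0.065 to 0.051. Same-numbered pairs likely share a rat, and the differences below do not use that. In SS the median of 3 days minus overnight was -0.087, with 28 of 30 below 0, where all 879 rows had a median of -0.026 and 41% lay above 0. In SS-13BN/Mcw it was -0.087, with 25 of 30 below 0, where all 896 rows had a median of 0.0044 and 50.6% lay above 0. The median of all members in SS was -0.083, and single pairs moved it: it was -0.052, -0.022 and -0.16 without overnight pair 1, 2 or 3, and -0.12, -0.084 and -0.011 without the same pairs at 3 days. In SS-13BN/Mcw it was -0.081, and -0.13 without overnight pair 3, -0.13 without pair 1 at 3 days and -0.046 without pair 2 at 3 days, the omissions that moved it most. It stayed below 0 in each of these. With arrays turned by dye the median of all members was -0.022 in SS and on the other side, at 0.030, in SS-13BN/Mcw. By limma 0 members passed at the adjusted threshold in either strain, as did 0% of all rows, and 0 members had an unadjusted p under 0.05. Such a p was reached by 0.796% of all rows on the positive and 1.14% on the negative side in SS, and by 6.25% and 4.91% in SS-13BN/Mcw.

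The smallest p-values in SS were those of Rpl17-ps16 at -0.19 ± 0.11 (SE), Rps3a at -0.15 ± 0.11 (SE) and Rpl36 at -0.16 ± 0.12 (SE), each with a limma adjusted p of 0.986. In SS-13BN/Mcw Eif5 differed by -0.25 ± 0.12 (SE) (limma adjusted p = 0.458), Rps6 by -0.23 ± 0.12 (SE) (limma adjusted p = 0.458) and Rps7 by -0.15 ± 0.10 (SE) (limma adjusted p = 0.543). For Rps6 the SS-13BN/Mcw pairs were 0.19, 0.26 and 0.12 overnight and 0.0071, -0.13 and -0.0011 at 3 days, so the groups did not overlap. In that strain 7 of 36 members did not overlap between the times, 5 lower at 3 days (Rps6, Rps7, Rps23, Rpl17-ps16 and Eef1a1) and 2 higher (Eif2b1 and Eif2b2), where 11.6% and 11.2% of all rows did so. In SS the one such member was Rpl4, lower at 3 days, where 4.89% of all rows were.

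No member was called different between the strains. The median of SS minus SS-13BN/Mcw was 0.0024 overnight (39 tested) and 0.023 at 3 days (34 tested), with 21 and 20 above 0 (all rows 52.2% and 53.3%). By limma 0 members passed at either time, as did 0% of all rows. An unadjusted p under 0.05 was reached by 0 members, and by 3.61% of all rows on the positive and 1.33% on the negative side overnight and 4.37% and 4.01% at 3 days. Overnight the smallest p-values belonged to Eif5 at -0.20 ± 0.12 (SE), Rpl4 at 0.14 ± 0.10 (SE) and Eif2b1 at 0.17 ± 0.12 (SE), with a limma adjusted p of 0.94 each. Eif2b1 was the one member whose strains did not overlap overnight, SS being higher, as for 7.7% of all rows. At 3 days they belonged to Rpl15 at 0.22 ± 0.11 (SE) (limma adjusted p = 0.589), Rpl41 at -0.17 ± 0.13 (SE) (limma adjusted p = 0.687) and Rpl35a at 0.14 ± 0.12 (SE) (limma adjusted p = 0.75). Standard errors of this size leave differences as large as the group values themselves undetectable with 3 pairs.

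Other genes of the translation pathway were scarce among the measured genes, with 8 of 67 listed having a value. Akt1, a kinase upstream of mTOR, was the only one past the threshold, at -0.73 in 2 pairs of SS overnight (limma adjusted p = 0.0367), and it stood at 0.022 in SS at 3 days. Of all rows 1.14% passed in SS overnight. Over the 4 groups 0 of 6 tested passed, where 28.4% of all rows did. Rps6kb1, an S6 kinase, had 0.070 (limma adjusted p = 0.312), Rack1, a protein bound to the small subunit, 0.048 (limma adjusted p = 0.288), and Npm1, a nucleolar chaperone of ribosome assembly, 0.041 (limma adjusted p = 0.426). Tpt1, another mRNA with a pyrimidine tract, had -0.0065, the small GTPase Rheb -0.0031 and its inhibitor Tsc2 -0.035. Polr1b, a subunit of the polymerase that makes ribosomal RNA, could not be tested.

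The values of the ribosomal proteins also differed with the dye orientation. On the 12 arrays with the low-numbered rat in Cy3 the median of the 29 proteins ran from -0.07 to 0.37, with a middle value of 0.17, and was positive on 11. On the 12 with that rat in Cy5 it ran from -0.235 to 0.157, with a middle value of 0.0136, and was positive on 6. The Cy3 array was the higher in 11 of 12 pairs. Averaging the arrays of a pair removes a dye part that is equal in size and opposite in sign between the orientations. Among the 32 members with all arrays, 22 were lower with the low-numbered rat in Cy5. Rpl41 had the largest such gap, with a mean of 0.49 ± 0.20 (SD, n = 12 arrays) in Cy3 and -0.16 ± 0.14 in Cy5. Rpsa had the reverse, with -0.45 ± 0.30 in Cy3 and 0.33 ± 0.30 in Cy5. Of the other genes past the threshold over all groups, 3 also changed side between Cy3 and Cy5. These were Rpl39 (0.41 and -0.045), Rps13 (0.41 and -0.0885) and Rpl29 (0.26 and -0.035). Only Rpl31 kept 1 side, with means of 0.30 ± 0.20 and 0.069 ± 0.17. Rps23, whose pairs were nearly equal in SS-13BN/Mcw overnight, had 0.39 in Cy3 and -0.20 in Cy5 over the 12 pairs.

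**Figure D4:**
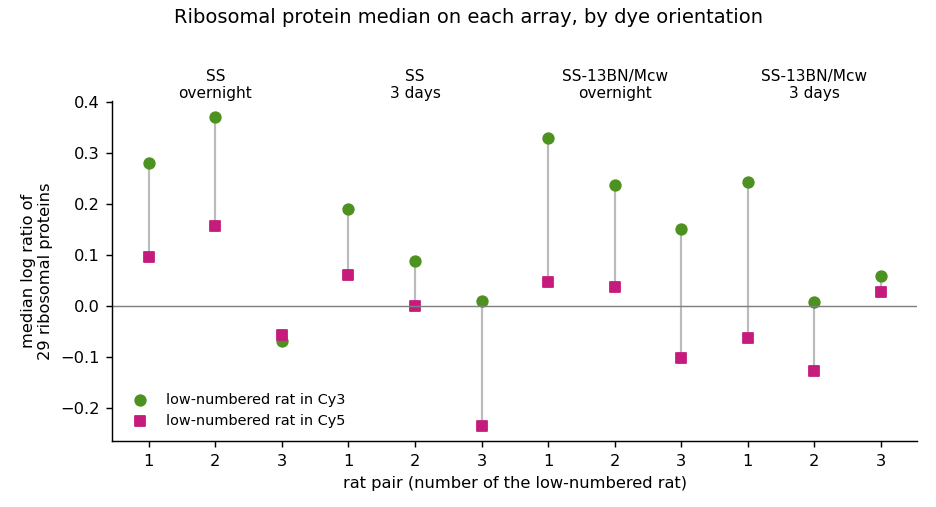
The vertical axis is the median log ratio, in deposited units, of 29 ribosomal proteins on 1 array; the circle is the array with the low-numbered rat in Cy3 and the square the array with it in Cy5, joined for each rat pair. The circle is above the square in 11 of 12 pairs, and circles are positive in 11 of 12 arrays and squares in 6 of 12.

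Every side given here rests on the ratios having been turned to 1 rat-to-rat direction before deposit. Both arrays of a pair correlated across genes in 12 of 12 pairs once the part shared by an orientation was removed (r from 0.201 to 0.83), and from -0.0594 to 0.749 before that. With that part removed, arrays of unlike pairs had a mean r from -0.125 to -0.0107. In arrays left unturned, the rat-to-rat part would have opposite signs within a pair. Had the arrays been deposited as Cy5 over Cy3 instead, turning them would put the median of members in the mean of the 4 groups at -0.060 and 21 of 34 past the threshold, 5 of them positive, with 567 of 821 rows past it (limma). Rpl39 would then stand at -0.23, Rpl41 at -0.33, Rpl31 at -0.11, Rps13 at -0.25 and Rpl29 at -0.15, all negative.

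The medians of the proximal tubule and the matrix and stroma marker lists lay farther from 0 than that of the ribosomal proteins in each of the 4 groups, though at 3 days in SS-13BN/Mcw the matrix list was at 0.039 and the ribosomal proteins at 0.020. Of the proximal tubule list 16 of 22 genes were measured, and their median was -0.58 in SS overnight, -0.60 in SS at 3 days, -1.11 in SS-13BN/Mcw overnight and -0.93 in that strain at 3 days. Of the matrix and stroma list 15 of 22 were measured, with medians of 0.36, 0.40, 0.45 and 0.039 in the same order. The 4 leukocyte genes measured had medians of 0.24 (3 tested), 0.20 (2 tested), 0.22 (2 tested) and 0.026 (1 tested). In the same order the 5 genes tested of the thick ascending limb and distal tubule list had medians of -0.11, -0.25, -0.19 and 0.015, and the collecting duct list, with 3 or 4 tested, had -0.12, -0.14, -0.16 and 0.28. These lists lay nearer to 0 than the ribosomal proteins in some groups. Of the glomerulus and the blood lists 1 and 2 genes were tested, with medians from -0.044 to 0.20 and from -0.075 to 0.10. Pair by pair, the 8 proximal tubule genes on all arrays had medians of -0.40, -0.64 and -0.25 in SS overnight and -0.72, -0.98 and -1.97 in SS-13BN/Mcw overnight. Pair 3 of SS overnight, where ribosomal proteins were on the negative side, had the value nearest to 0. In SS-13BN/Mcw overnight pair 3, with the lowest tubule value, had the ribosomal protein median nearest to 0. At 3 days the tubule medians were -1.03, -0.21 and -0.15 in SS and -0.91, -1.20 and -1.19 in SS-13BN/Mcw. Pair 3 of SS, again negative in the ribosomal proteins, had the value nearest to 0. Pair 2 of SS-13BN/Mcw, the negative one there, had instead the lowest tubule value of its group. The part of these cell types in the ribosomal protein values was not tested.

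**Figure D5:**
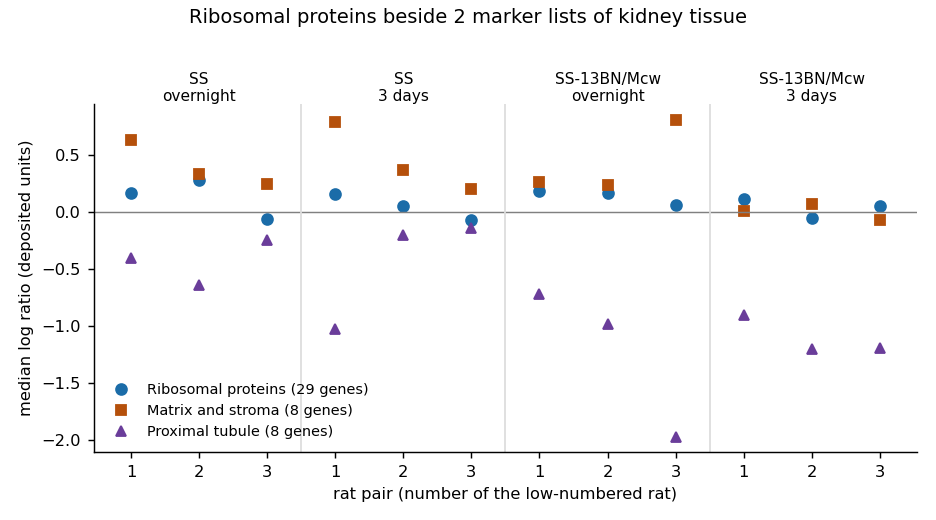
The vertical axis is the median log ratio, in deposited units, of 29 ribosomal proteins, 8 matrix and stroma genes and 8 proximal tubule genes in each rat pair. Ribosomal protein medians stay between -0.072 and 0.28 while proximal tubule medians range from -1.97 to -0.15.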

How the data were processed

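Deposited values were log ratios, 1 for each probe on an array, recorded here as log2 although neither the authors' log base nor the numerator is stated; the authors' normalization is not given in the sources used here. As deposited, array means were near 0 (largest absolute mean 0.00082). Of 3742 probe identifiers 1766 had a value, 1426 with 1 symbol, 29 with several and 311 with none, from GEO's platform annotation, which can be old. For 1421 the symbol was checked in the RefSeq gene table by gene number; Eif5 was not found there and kept its symbol. The depth of an array has no count, so its precision rests on the number of arrays.

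Each array was centred on its median, the 2 arrays of a pair were averaged (both required), and 1762 rows entered limma 3.58.1 in R 4.3.3 (lmFit with 1 coefficient per group over 12 pairs, eBayes, two-sided, Benjamini-Hochberg over all rows tested, threshold 0.05). Testing a row required a value in 2 or more pairs of each group compared. Comparisons were each group against 0, strain differences, time differences and the mean of the 4 groups. Members, lists and alternatives were chosen with earlier results of these data known. Members named were those past the threshold, else the 3 with the smallest p in each direction (in a difference, 3 in all), and the 5 highest and 5 lowest means over the groups among members with a value in all 12 pairs; further members were added to account for each, after their values were seen.

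The rats numbered 1 to 3 recur in titles of both times, so same-numbered pairs are likely linked. The tests reported took the 12 pairs to be independent. Deviations from the group mean correlated between times for the same rat with r of 0.494, -0.0237 and 0.62 in SS and 0.389, 0.322 and 0.259 in SS-13BN/Mcw. A fit with that rat as a replicate block (duplicateCorrelation, statmod 1.5.0, correlation 0.285) was run beside each comparison. Alternatives were no median centring, scaling, quantile normalization, an array-level fit, stricter and looser handling of missing values, a probe-level fit, only the groups of the contrast, turning by dye, and leaving out each pair. The fits were checked on simulated data. Python 3.11.15 with pandas 2.3.3 and matplotlib 3.10.9 searched the start sites and drew figures.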

Additional observations from a re-analysis of the deposited data

Results flagged for a closer look

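For 3 members the rat pairs of both times lay on opposite sides of 0, while the fitted time difference itself did not pass (limma). How many of all rows did so was not counted, so this is no result about the members. Under the wider rule of no overlap between times, 4.89% of all rows were lower at 3 days in SS. In SS-13BN/Mcw 11.6% were lower and 11.2% higher. Rpl4 in SS was above 0 in every pair overnight and below 0 in every pair at 3 days, a difference of -0.11 (adjusted p = 0.986 by limma). Some of its values were near 0, at 0.0020 in overnight pair 3 and -0.014 in pair 1 at 3 days. Rps7 in SS-13BN/Mcw was also above 0 overnight and below 0 at 3 days, with a difference of -0.15 (adjusted p = 0.543 by limma). Eif2b1 in SS-13BN/Mcw went the other way, below 0 overnight and above 0 at 3 days, with a difference of 0.13 (adjusted p = 0.653 by limma).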

How the results depend on the processing

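The members' position depends most on the direction of the ratios. With arrays turned by dye, 17 of 40 members passed the threshold in SS overnight, where 324 of 1138 rows did. In SS at 3 days 15 of 35 passed, where 344 of 882 rows did. In SS-13BN/Mcw overnight 15 of 39 passed, where 308 of 1099 rows did. In that strain at 3 days it was 12 of 36, where 299 of 906 rows passed. In the mean of the 4 groups 21 of 34 passed, where 567 of 821 rows did. The counts over all rows thus also rose with turning. Medians of members were then -0.0669 in SS overnight, -0.0896 in SS-13BN/Mcw overnight, -0.0604 in the mean and 0.0300 in the time difference of SS-13BN/Mcw. Reversed under turning were, in SS overnight, Rpl39 (-0.23), Rpl27a (-0.081) and Eef2k (0.044); in SS at 3 days Rpl39 (-0.22); in SS-13BN/Mcw overnight Rpl39 (-0.24), Rpl31 (-0.12), Rpsa (0.42), Rpl18-ps7 (0.024) and Eif2b1 (0.17). In SS-13BN/Mcw at 3 days Rpl41 (-0.29), Rpl31 (-0.12) and Rpl15 (0.079) reversed. So did the strain differences at 3 days of Rpl15 (-0.028) and Rpl35a (-0.10) and the time difference of Rps6 in SS-13BN/Mcw (0.046). In the mean, Rpl39 (-0.23), Rpl41 (-0.33), Rpl31 (-0.11), Rps13 (-0.25), Rpl29 (-0.15), Rpl37l1 (-0.29), Rps7 (-0.090), Rpl4 (0.059), Rpsa (0.39) and Rpl5 (0.10) reversed. Turning keeps the dye part of each pair and cancels the part its arrays share.

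Other settings moved counts only in 2 comparisons. The array-level fit called 2 members in SS-13BN/Mcw overnight, and 204 of all rows, against 116 rows in the fit on pairs. In the mean of the 4 groups 9 passed in the array-level fit, 9 with values as deposited, and 3 with the low-numbered rat as replicate block, which changed no other count of members. Of all rows 279, 244 and 174 passed in that order, against 233 in the fit reported. Leaving out 1 pair gave 3 to 13 members in that mean and 0 in the other comparisons. Values near 0 changed sign in the mean: Rpl5 was 0.0038 as deposited and 0.0054 with arrays scaled, and Rps7 was -0.0040 with arrays scaled and -0.0086 after quantile normalization. The cause was not tested. With 1 pair left out, Rpl5 ran from -0.033 to 0.0093, Rps7 from -0.014 to 0.025, Eif2b2 in SS overnight from -0.20 to 0.036 and Rpl17-ps16 in SS at 3 days from -0.14 to 0.039. The median of all members then ran from -0.0043 to 0.091 in SS at 3 days and from -0.0013 to 0.051 in SS-13BN/Mcw at 3 days. The number of arrays, and gaps in the values of most factors, limit what can be seen.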
